A study of Mus musculus with 24 samples.

Results

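Alveolar macrophages keep the air spaces of the lung clear of inhaled particles and microbes, and they meet both through receptors on their surface and in their endosomes. The 10 genes described here encode such receptors: the scavenger receptors Marco, Msr1, Olr1 and Cd163, the C-type lectin receptors Clec7a, Clec4n and Clec4e, and the Toll-like receptors Tlr2, Tlr4 and Tlr7. They were taken by symbol from the 43430 gene rows of a table of RNA-seq counts, all 10 were found there, and all 10 passed the filter on low counts. The table held 24 libraries of macrophages sorted from lungs of C57BL/6J mice, 4 in each of 6 groups. Young mice were 8 to 12 weeks old and old mice over 18 months. Naive mice gave a young and an old Siglec F-high group, and mice studied 28 days after asbestos gave a Siglec F-high and a Siglec F-low group at each age. The 6 groups hold no naive Siglec F-low cells, no transgene or further treatment was named, and the labels did not say whether each library was a different animal or whether the 2 sorts of a replicate number came from the same one. The p-values therefore measure the spread between these libraries, which may be partly technical.

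Scavenger receptors bind modified lipoproteins, dead cells, bacteria and mineral surfaces, and many of them pass their cargo into the cell. Marco and Msr1 are the class A receptors through which macrophages are best known to take up uncoated mineral particles, Olr1 is the lectin-like receptor for oxidised low-density lipoprotein, and Cd163 clears haemoglobin bound to haptoglobin. Clec7a (Dectin-1) recognises fungal beta-glucan, Clec4n (Dectin-2) recognises mannose-rich fungal walls and Clec4e (Mincle) recognises glycolipids of mycobacteria and fungi as well as a protein released by dying cells. Tlr2 senses bacterial lipoproteins, Tlr4 senses lipopolysaccharide and Tlr7 senses single-stranded RNA in endosomes. In resident alveolar macrophages Marco and Clec7a are familiar surface proteins, while Cd163 is better known from other tissue macrophages.

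In the reference annotation (GENCODE M21, GRCm38, the same build as the mm10 named in the submitters' processing notes) 5 of the 10 genes lie on chromosome 6, which holds 5.18% of the genes tested. Clec4n (ENSMUSG00000023349, chr6:123229843-123247021, plus strand) and Clec4e (ENSMUSG00000030142, chr6:123281789-123289870, minus strand) are neighbours there, Cd163 (ENSMUSG00000008845, chr6:124304656-124330527, plus strand) follows, and Clec7a (ENSMUSG00000079293, chr6:129461591-129472779, minus strand) lies beside Olr1 (ENSMUSG00000030162, chr6:129485244-129507165, minus strand). Marco (ENSMUSG00000026390) is at chr1:120474538-120505024 on the minus strand, and Msr1 (ENSMUSG00000025044) at chr8:39581685-39642673 on the minus strand. Tlr2 (ENSMUSG00000027995) is at chr3:83836272-83841767 on the minus strand, Tlr4 (ENSMUSG00000039005) at chr4:66827584-66930284 on the plus strand and Tlr7 (ENSMUSG00000044583) at chrX:167304929-167330558 on the minus strand. No other gene of the table overlapped any of the 10. The values are for whole genes, all exons together.

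RefSeq promoter windows of GRCm38.p6 were found for 6 of the 10 genes, namely Marco, Olr1, Cd163, Clec7a, Clec4e and Tlr2. The 250 bases before the start site are printed for Marco, the receptor that varied most between libraries of a group, and for Olr1, which was called in no comparison, so that the steadiest and the least steady scavenger receptor with a window can be read side by side. Capitals mark matches to GAGGAA (the core bound by PU.1, a macrophage transcription factor) or TGANTCA (AP-1), on either strand. The Marco sequence is chr1:120505025-120505274 and the Olr1 sequence chr6:129507166-129507415, both on the minus strand and written 5′ to 3′.

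Marco: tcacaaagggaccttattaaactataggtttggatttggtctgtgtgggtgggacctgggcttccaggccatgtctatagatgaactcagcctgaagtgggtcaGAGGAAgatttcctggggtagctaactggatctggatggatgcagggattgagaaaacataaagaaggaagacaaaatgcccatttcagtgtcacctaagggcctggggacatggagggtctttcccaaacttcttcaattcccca
Olr1: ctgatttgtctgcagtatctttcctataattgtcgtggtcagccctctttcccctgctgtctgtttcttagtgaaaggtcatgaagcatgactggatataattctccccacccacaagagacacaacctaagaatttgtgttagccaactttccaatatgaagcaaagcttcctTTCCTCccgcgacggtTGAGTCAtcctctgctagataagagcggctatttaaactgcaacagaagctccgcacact

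The Marco window held 1 GAGGAA, beginning 146 bases before the start site. Olr1 held the reverse complement TTCCTC 76 bases and TGAGTCA 60 bases before its start. Clec7a held 1 GAGGAA, Clec4e held GAGGAA once on each strand and 1 match to TTGCNNAA (C/EBP), and the windows of Cd163 and Tlr2 held none of the 3 motifs. Among 27025 RefSeq promoter windows of the same 300 bases, 28.31% held GAGGAA, 7.933% held TGANTCA and 10.75% held TTGCNNAA on either strand. A match is a run of letters and not a measured binding site.

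Of the 24 libraries, 22 held 13423080 to 18124526 counts. Replicate 3 of the young asbestos Siglec F-high group (11889517 counts, 12528 genes with a count, correlation 0.865 with the rest of its group) and replicate 3 of the old asbestos Siglec F-high group (3894699 counts, 71.6% of them on rRNA-related genes) stood apart from the rest. Each result is therefore given for all 24 libraries, and for the 22 without this pair where the call or the size differs. Levels are CPM, which are counts brought to 1 library size by edgeR's TMM factors, given as mean ± SD of 4 libraries, and a log2 fold change is given ± its standard error. A gene was called at an edgeR adjusted p under 0.05 over all genes tested. In the sorted cells the 13 resident alveolar macrophage markers summed to 19866 to 25096 CPM in the naive libraries, 20651 to 44465 CPM in the asbestos Siglec F-high and 39584 to 69696 CPM in the Siglec F-low libraries. Most of the sum was Chil3, which averaged 12957 CPM in old naive, 27406 CPM in old asbestos Siglec F-high and 53837 CPM in old Siglec F-low cells. Siglecf and Ear1 of the same list were called lower in old Siglec F-low than in old asbestos Siglec F-high cells. The 12 neutrophil markers summed to 47.4 to 116 CPM over all 24 libraries. The defining neutrophil gene Ly6g was at 0 in every library of 5 groups. With 24 libraries Mmp8 (22.8 to 40.1 CPM) and S100a8 (3.22 to 12.4 CPM) were called higher and Csf3r (42.0 to 21.8 CPM) lower after asbestos in young mice. With 22 libraries S100a8 was not called (1.04, edgeR adjusted p 0.0716), while Mmp8 and Csf3r were. The part of neutrophils in the receptor differences was not tested. The 14 monocyte-derived macrophage markers summed to 724 to 1601 CPM in the Siglec F-high libraries and 2070 to 3522 CPM in the Siglec F-low libraries. Siglecf itself was at 265 ± 27.4 CPM in young and 173 ± 32.5 CPM in old Siglec F-low libraries, and at 420.0 ± 73.5 and 442 ± 47.8 CPM in the matching Siglec F-high ones. In bulk libraries of this kind, fewer cells of one type and less RNA per cell cannot be told apart.

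Per kilobase of exon, Clec7a was the most abundant of the 10 receptors in all 6 group means with 22 libraries, at 329.9 ± 14.8 CPM per kb in old naive cells and 563 ± 59.2 CPM per kb in old asbestos Siglec F-low cells. Tlr2 (192 to 294 CPM per kb over the group means of 24 libraries), Clec4n (209.6 to 333) and Marco (107 to 302) formed the next tier, and Olr1 stood at 86.3 to 109 CPM per kb. Tlr7 (25.1 to 41.3) and Tlr4 (17 to 23.3) were lower. Clec4e reached 6.22 to 10.8 CPM per kb, Msr1 ran from 1.79 to 16.7 CPM per kb, the widest proportional range of the 10 group means, and Cd163 stood at 0.280 to 0.685 CPM per kb. Cd163 rested on 2 to 98 counts a library, so its differences carry large counting error, whereas the lowest count of Clec7a in any library was 835.

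**Figure D1:**
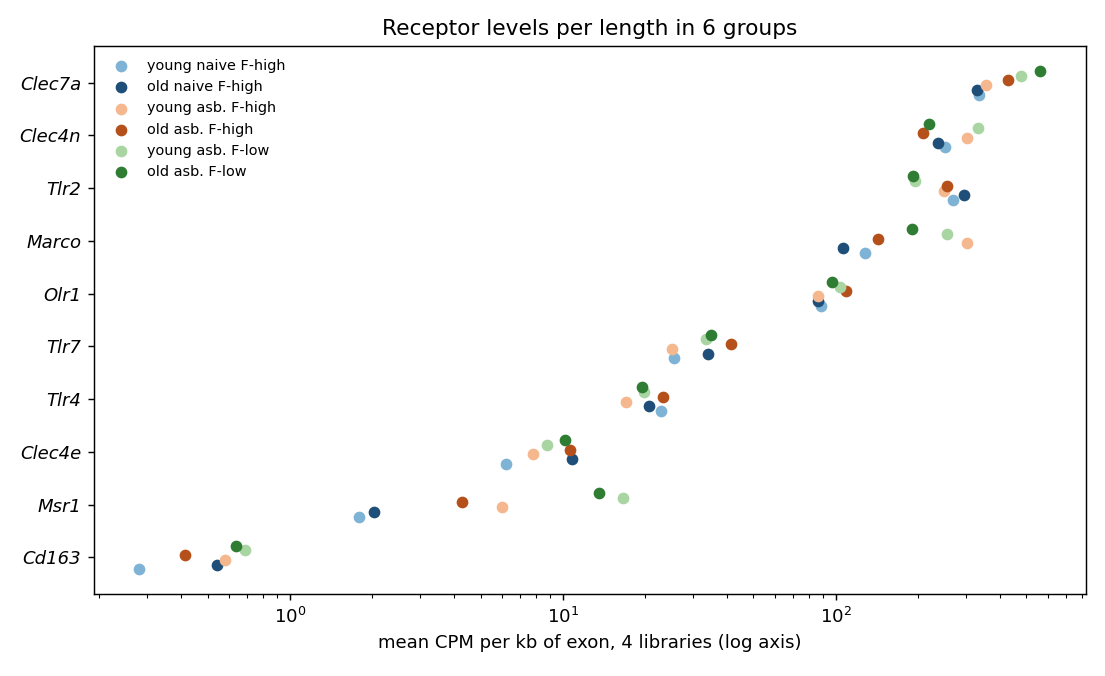
Level of each of the 10 receptors per kilobase of exon (CPM per kb, log axis) in the 6 groups. Clec7a stands highest and Cd163 lowest, at 0.280 to 0.685 CPM per kb, and Msr1 spans 1.79 to 16.7 CPM per kb between groups.

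Across the 7 comparisons of 2 groups with 24 libraries, edgeR called Msr1 in 3 and Clec4n in 2, and no other receptor of the 10. Msr1 was higher after asbestos than in naive young mice and higher in the Siglec F-low than in the Siglec F-high sort at both ages. Clec4n was lower in old than in young cells in both sorts after asbestos, of which the Siglec F-low call held with 22 libraries and the Siglec F-high call did not. Tlr7 was higher in old Siglec F-high cells, naive and after asbestos, when 22 libraries were fitted, but not with 24. Olr1, Tlr4, Cd163 and Marco were called by edgeR in none of the 9 comparisons with either set of libraries.

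**Figure D2:**
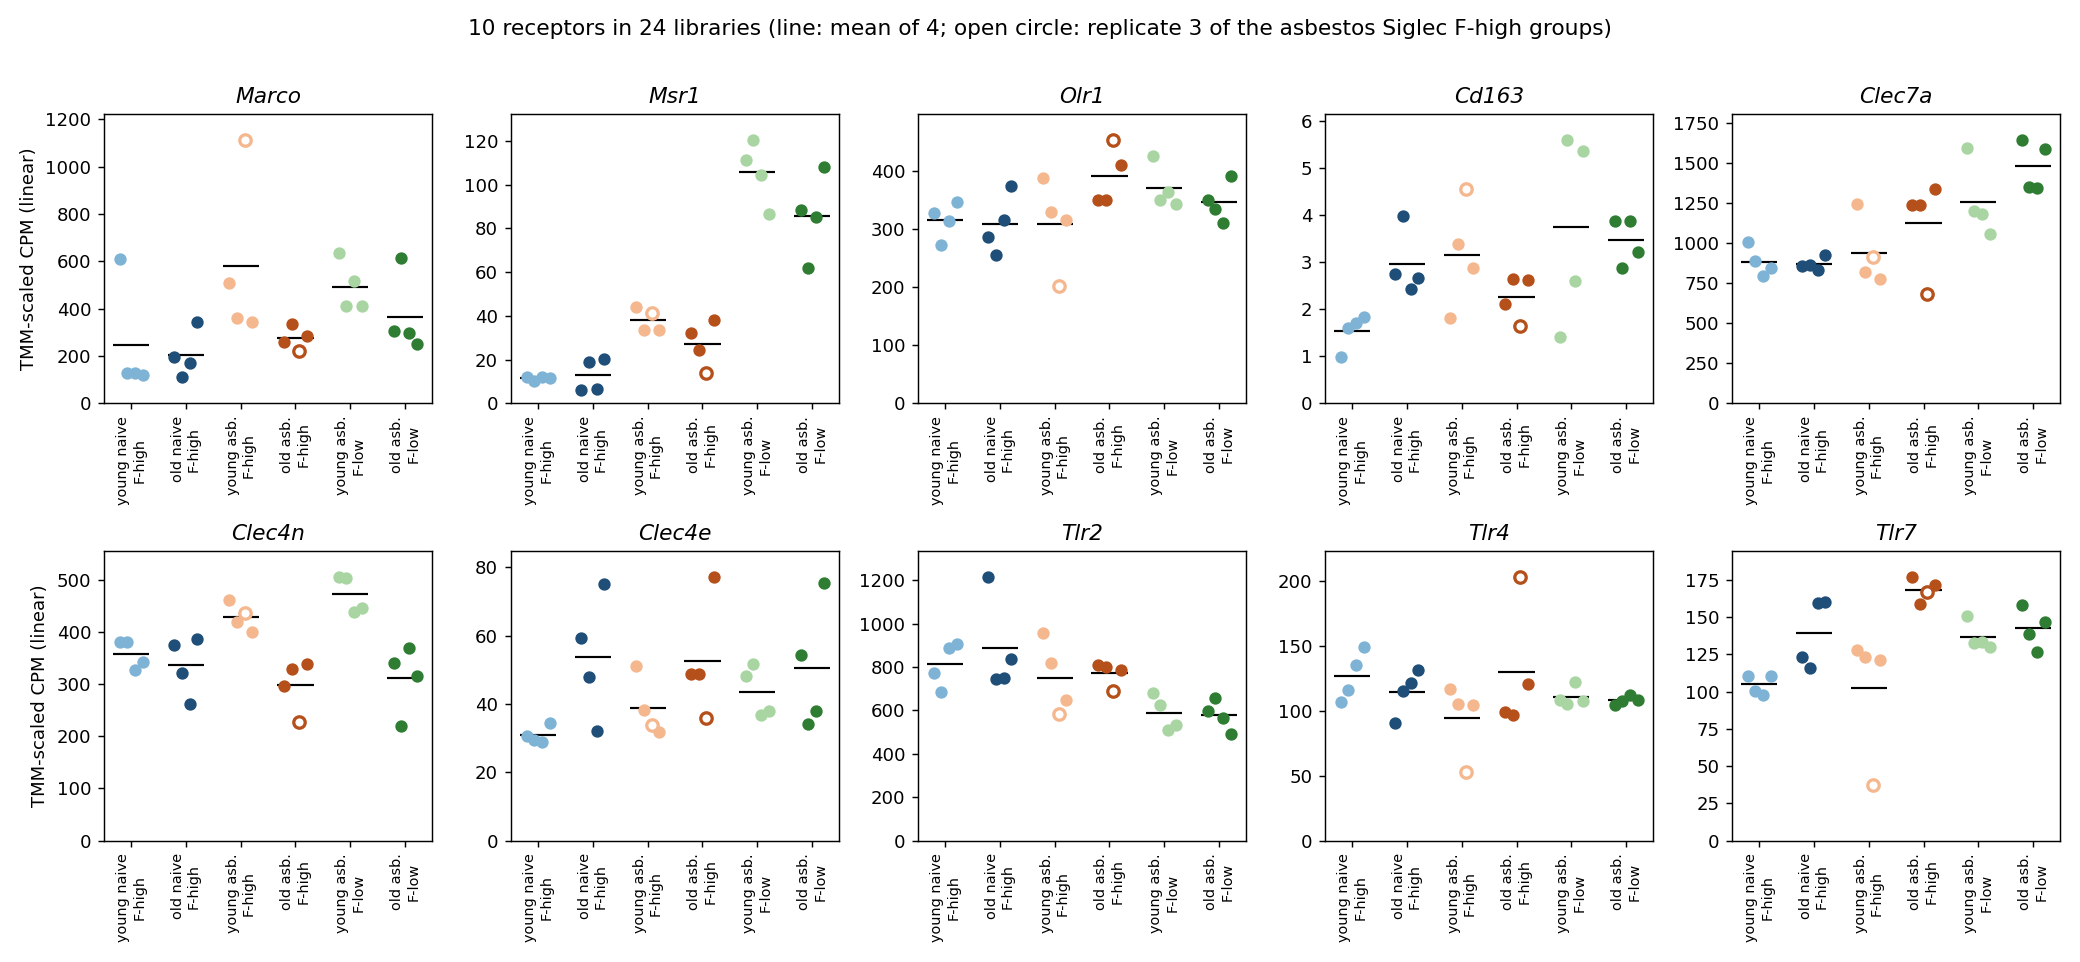
Level of each of the 10 receptors (CPM, each axis from 0) in each of the 24 libraries, by group, with the group mean. The Msr1 points rise from 6.12 to 20.1 CPM in naive cells to 61.9 to 120.3 CPM in Siglec F-low cells, and Marco has 1 young naive library at 608 CPM above 3 at 121 to 129 CPM.

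Msr1, the macrophage scavenger receptor of class A, was called by sort and by asbestos and in no comparison by age. In young naive cells the 4 libraries were at 12.0, 10.1, 11.9 and 11.5 CPM, and in old naive cells at 6.12, 18.7, 6.57 and 20.1 CPM. After asbestos the young Siglec F-high libraries were at 43.9, 33.4, 41.5 and 33.6 CPM and the old ones at 32.1, 24.5, 13.9 and 38.3 CPM, where the lowest was the shallow replicate 3 with 17 counts. The Siglec F-low libraries were at 111, 120.3, 104 and 86.7 CPM in young and 88.3, 61.9, 85.4 and 108 CPM in old mice. Every Siglec F-low library was above every Siglec F-high library, and every young asbestos Siglec F-high library was above every naive one.

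Asbestos against naive in young Siglec F-high cells asked how this sort differed after the exposure. Msr1 rose from 11.4 ± 0.912 to 38.1 ± 5.41 CPM there, by 1.74 ± 0.31 on the log2 scale (3.34-fold, edgeR adjusted p 0.00293), and by 1.69 with 22 libraries (0.000827). It was the 1 receptor of 10 called in this comparison, where 1.90% of all genes tested were called with 24 libraries and 5.06% with 22. In old mice it stood at 12.9 ± 7.55 and 27.2 ± 10.5 CPM, a difference of 1.15 ± 0.31 that was not called with 24 libraries (edgeR adjusted p 0.101). Leaving out replicate 4 of the old naive group gave a call for Msr1, asbestos against naive, old Siglec F-high, at 1.44 (edgeR adjusted p 0.0377). With 22 libraries the old difference was 1.30 ± 0.29 and called (edgeR adjusted p 0.0102), but not once replicate 4 of the old asbestos sort was left out (0.0664). The difference between the old and the young response was -0.59 ± 0.43 (edgeR adjusted p 0.629), so a difference in Msr1 response between the ages was not shown.

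The same gene separated the sorts. Between the young asbestos sorts Msr1 rose from 38.1 ± 5.41 CPM in Siglec F-high to 106 ± 14.2 CPM in Siglec F-low cells, by 1.47 ± 0.30 (2.78-fold, edgeR adjusted p 0.00406). In old mice it rose from 27.2 ± 10.5 to 85.9 ± 18.8 CPM, by 1.59 ± 0.31 (3.02-fold, edgeR adjusted p 0.00307). With 22 libraries the values were 1.51 and 1.44, both called. These 3 calls of Msr1 with 24 libraries held under each of the 25 alternatives run for each. The monocyte-derived marker list moved with this sort difference, with 8 of 14 genes called higher in young and 10 of 14 in old Siglec F-low cells, led by C1qb, C1qa and C1qc, which encode the chains of complement C1q. Of all genes tested, 4.99% were called between the young and 4.30% between the old sorts. Of the 13 resident markers 1 was called higher and 5 lower in the Siglec F-low sort at each age. The higher one was Chil3, a chitinase-like protein of resident cells, at 20284 and 36739 CPM in young (0.86 ± 0.24, edgeR adjusted p 0.0386) and 27406 and 53837 CPM in old mice (0.97 ± 0.24, 0.0199). The part of either list in the Msr1 difference was not tested. By age Msr1 differed by -0.42 to 0.17 in the 3 comparisons, none called.

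Ordered by group mean with 24 libraries, Msr1 ran from young to old Siglec F-low, then young and old asbestos Siglec F-high, then old and young naive cells. The gap between the sorts was the step whose neighbours did not overlap. With 22 libraries the step between old asbestos Siglec F-high and old naive cells did not overlap either. The genes whose log2 CPM was most like that of Msr1 over 24 libraries were Arhgap10 (r 0.964), Man1a (0.961) and Npy (0.954), and over 22 libraries Man1a (0.977), Alg2 (0.970) and Arhgap10 (0.966). These libraries share the group differences, so r is a description.

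Marco, the other class A receptor, is the one whose values differed most among libraries of the same group. The young naive libraries were at 608, 129, 128 and 121 CPM, and the old naive ones at 196, 112, 170.1 and 343 CPM. After asbestos the young Siglec F-high libraries were at 510.4, 361, 1112 and 343 CPM, where the highest is the outlying replicate 3, and the old ones at 257, 334, 222 and 285 CPM. The Siglec F-low libraries were at 633, 411, 515 and 412 CPM in young mice and 307, 614, 296 and 249 CPM in old mice. Young naive replicate 1 therefore held more Marco than all but 1 of the young asbestos Siglec F-high libraries, while the other 3 young naive libraries lay below every asbestos library.

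**Figure D3:**
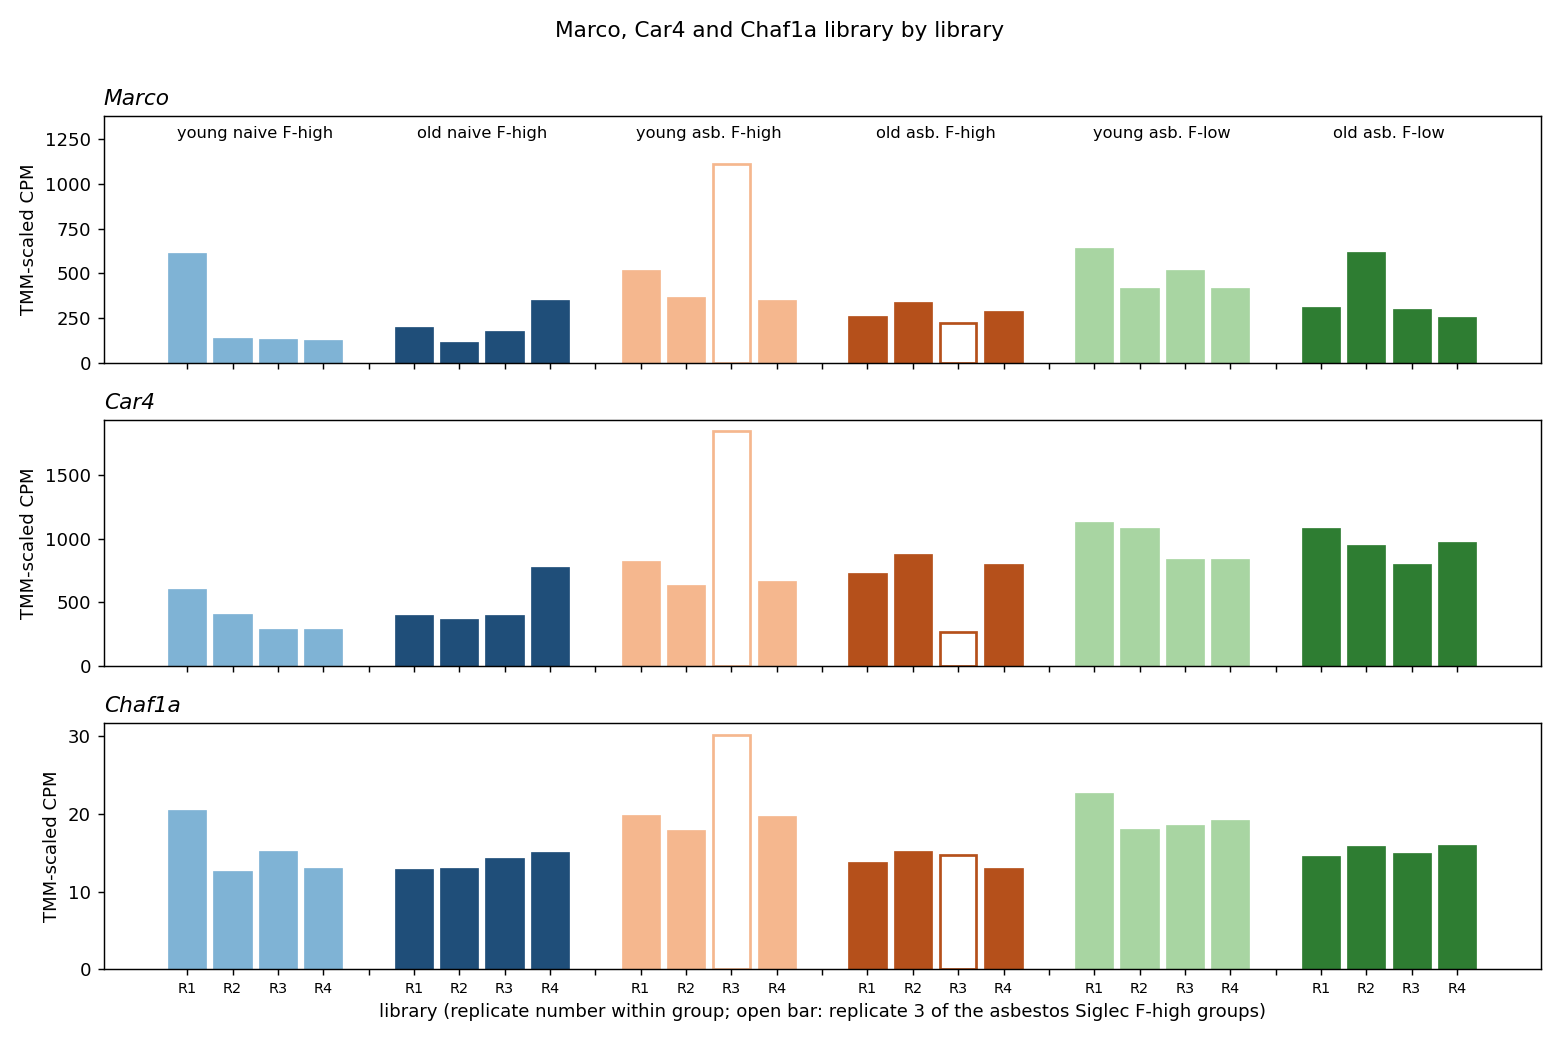
Marco, Car4 and Chaf1a (CPM, axes from 0) in each of the 24 libraries, drawn as bars grouped by the 6 groups. Young naive replicate 1 stands at 608 CPM for Marco and 595 CPM for Car4, above the other 3 young naive libraries for all 3 genes. Car4 and Chaf1a were picked for following Marco over these same libraries.

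Marco was called in no comparison, and 1 library decided the value in young naive cells. Group means were 247 ± 241 CPM in young naive and 205 ± 98.2 CPM in old naive cells, 582 ± 361 and 274 ± 47.1 CPM in young and old asbestos Siglec F-high cells, and 493 ± 106 and 367 ± 167 CPM in young and old Siglec F-low cells. Asbestos against naive differed by 1.24 ± 0.48 in young mice (edgeR adjusted p 0.171) and by 0.42 ± 0.47 in old mice (0.958), and with 22 libraries by 0.71 (0.436) and 0.51 (0.605). Without young naive replicate 1, Marco, asbestos against naive, young Siglec F-high, stood at 2.20 with the other 23 libraries (edgeR adjusted p 0.00529) and at 1.68 with 21 (0.00236), called in both. The limma voom fit, which gives each library a weight, called the difference with all 24 libraries at 1.28 (adjusted p 0.00799). Without the same library the value for Marco, old against young, naive Siglec F-high, moved from -0.27 to 0.70, neither called (edgeR adjusted p 1 and 0.761).

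Old against young asbestos Siglec F-high put Marco at 222 to 334 CPM in old and 343 to 1112 CPM in young libraries, ranges that did not overlap. The difference was -1.08 ± 0.48 with 24 libraries (edgeR adjusted p 0.155) and -0.46 ± 0.48 with 22 (0.669). In Siglec F-low cells it was -0.43 ± 0.47 (edgeR adjusted p 1), and the ranges overlapped through old replicate 2 at 614 CPM. The sorts differed by -0.24 ± 0.47 in young and 0.41 ± 0.47 in old mice. In the order of the 6 groups by mean Marco level, the libraries of all neighbouring groups overlapped in range. Such overlap is a description and not a test. Further apart in that order, every young Siglec F-low library (411 CPM or more) lay above every old naive (343 CPM or less) and every old asbestos Siglec F-high library (334 CPM or less). The SD of log2 CPM within groups was 0.69, larger than that of 76.4% of genes tested with 24 libraries, and 0.65, larger than that of 92.0%, with 22. It was the largest of the 10 receptors in both.

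The highest Marco library among the old asbestos Siglec F-high libraries was replicate 2, as among the old Siglec F-low ones, and replicate 1 was the highest of the young Siglec F-low libraries and, leaving the outlying replicate 3 aside, of the young Siglec F-high ones. The labels do not say that the numbers mark a shared animal. The genes most like Marco over 24 libraries were Chaf1a (r 0.838), Car4 (0.825), Fabp4 (0.810), Kmt5a (0.806), Gins1 (0.805), Hpgds (0.784), Efemp2 (0.773), Fam92a (0.756), Cdc45 (0.756) and Nectin2 (0.749). Over 22 libraries they were Car4 (0.810), Serinc5 (0.803), Stom (0.792), Rab40c (0.789), Chaf1a (0.787), Sdc3 (0.783), Mapre2 (0.783), Ell2 (0.781), Nsf (0.780) and Nectin2 (0.779). Car4, Chaf1a and Nectin2 stood in both lists. In young naive replicate 1, Car4 was at 595 CPM against 282 to 399.7 CPM in the other 3 libraries, Fabp4 at 90.8 against 34.2 to 63.1 CPM and Chaf1a at 20.3 against 12.5 to 15.1 CPM. These genes were picked for following Marco over the same libraries, this one included. Their higher level there is therefore partly fixed by the choice and is no separate evidence about that library. The libraries behind these correlations share group and depth, and the 22 leave out the library with the highest level of Marco, Car4, Fabp4 and Chaf1a.

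Olr1 was called in no comparison. Young naive libraries were at 327, 273, 315 and 347 CPM and old naive ones at 287, 256, 316 and 374 CPM. After asbestos the young Siglec F-high libraries were at 387, 329, 202 and 315 CPM, the lowest again the outlying one, and the old ones at 349.7, 350.1, 453 and 411 CPM. The Siglec F-low libraries lay between 311 and 426 CPM at both ages. All neighbouring group means overlapped, and the 7 differences ranged from -0.17 to 0.34 with 24 libraries and from -0.10 to 0.27 with 22. The largest of the 22-library differences was asbestos against naive in old mice, at 0.27 ± 0.11 (edgeR adjusted p 0.213). The genes most like it over 22 libraries were Ly75 (r 0.868), Sfmbt1 (0.841) and Ccdc88a (0.808).

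Cd163 was the lowest of the 10, between 0.978 and 5.59 CPM. The young naive libraries were at 0.978, 1.59, 1.70 and 1.84 CPM, and the old naive ones at 2.74, 3.98, 2.43 and 2.66 CPM, which did not overlap. That difference was 0.95 ± 0.35 with 24 libraries (edgeR adjusted p 0.285) and 0.95 ± 0.33 with 22 (0.0823), called in neither. Within the young Siglec F-low group the libraries split into 1.42 and 2.6 CPM against 5.59 and 5.37 CPM. The 10 interstitial macrophage markers summed to 6.16 to 27.8 CPM over all 24 libraries, and the part of such cells in the level of Cd163 was not tested. Maf was among the genes most like Cd163 in both sets of libraries (r 0.697 with 24, 0.759 with 22).

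**Figure D4:**
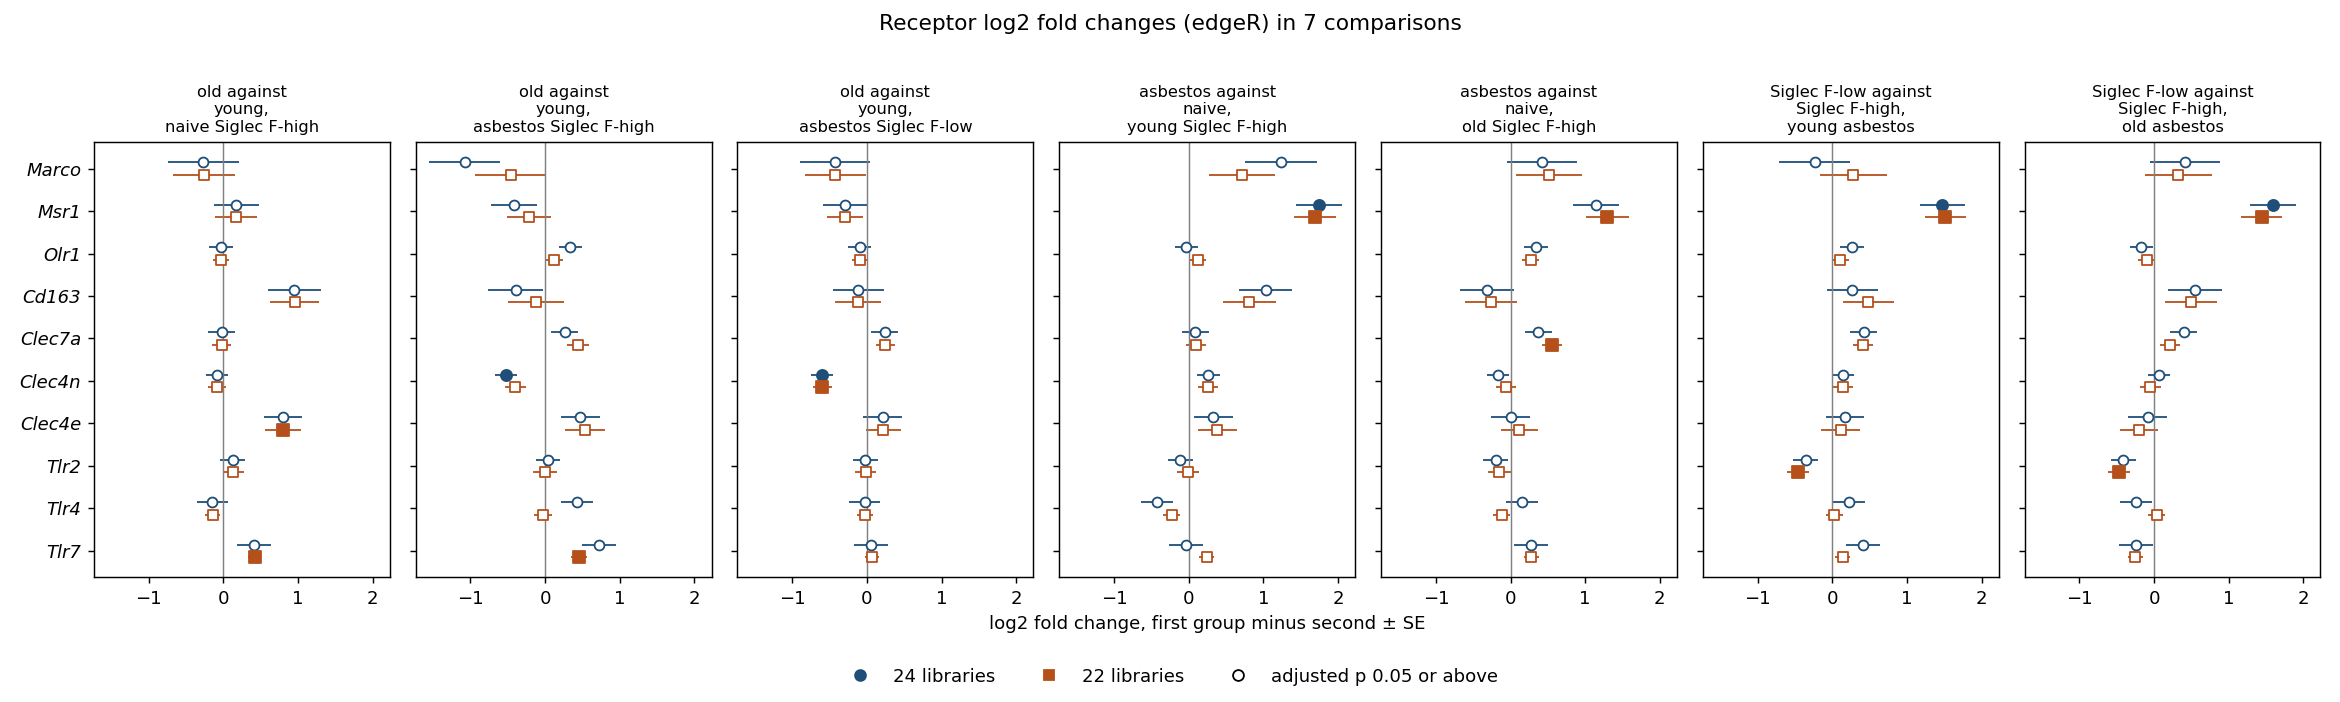
Log2 fold change of each of the 10 receptors in the 7 comparisons of 2 groups, with bars for 1 standard error, from the fit of 24 libraries and from that of 22. Msr1 stands near 1.5 in the sort comparisons, Clec4n below 0 in the age comparisons after asbestos, and the Tlr7 points have shorter bars with 22 libraries.

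Among the C-type lectin receptors, Clec4n was lower in old than in young cells in both sorts after asbestos. Young asbestos Siglec F-high libraries were at 462, 419, 436 and 399 CPM and the old ones at 296, 328, 227 and 339 CPM. The Siglec F-low libraries were at 504, 503, 438 and 445 CPM in young and 341, 219.6, 369.6 and 316 CPM in old mice. No old asbestos library of either sort reached the level of any young one.

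In the Siglec F-high sort Clec4n fell from 429 ± 26.7 to 298 ± 50.4 CPM, by -0.52 ± 0.15 (1.44-fold, edgeR adjusted p 0.0470), the 1 receptor of 10 called there, with 4.76% of all genes called. With 22 libraries the difference was -0.40 ± 0.14 and not called (edgeR adjusted p 0.101), where 7.32% of genes were. The call with 24 libraries held under 5 of 24 alternatives. It was lost, for Clec4n, old against young, asbestos Siglec F-high, without young replicate 1 or 3 (edgeR adjusted p 0.0599 and 0.0516) and without any 1 of the 4 old replicates (0.0623 to 0.130). In the Siglec F-low sort Clec4n fell from 473 ± 35.7 to 311 ± 65.1 CPM, by -0.60 ± 0.15 (1.52-fold, edgeR adjusted p 0.0457), again the 1 receptor called, with 1.29% of all genes. With 22 libraries the difference was -0.60 ± 0.13 (edgeR adjusted p 0.00416, 7.21% of genes called), and it was called in 8 of 8 fits of 21 libraries that left out 1 library of these groups. With 24 libraries the call was lost when any 1 of these libraries but old replicate 3 was left out, with edgeR adjusted p of 0.0888 to 0.222 for Clec4n, old against young, asbestos Siglec F-low.

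In naive cells no age difference of Clec4n was called. It was at 380.4, 380.0, 327 and 342 CPM in young and 375, 321, 262 and 386 CPM in old naive libraries, and differed by -0.09 ± 0.15 (edgeR adjusted p 1). Asbestos against naive was 0.26 ± 0.15 in young and -0.17 ± 0.15 in old mice. The difference between these responses was -0.43 ± 0.21 (edgeR adjusted p 0.587), not called, so an age effect particular to asbestos was not shown. In the order of levels the 2 young asbestos groups stood above the other 4 with no overlap, and those 4 overlapped with their neighbours. Over 24 libraries the genes most like Clec4n were Tbc1d15 (r 0.839), Pcna (0.822) and M6pr (0.820), and over 22 libraries Bub1 (0.880), Kif4 (0.867) and Shcbp1 (0.841).

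Clec7a ranged from 682 to 1646 CPM. Its means were 885 ± 89.7 CPM in young naive and 870.3 ± 39.1 CPM in old naive cells, 940.3 ± 213 and 1126 ± 299.6 CPM in young and old asbestos Siglec F-high cells, and 1259 ± 235 and 1485 ± 156 CPM in young and old Siglec F-low cells. The old naive libraries were at 856, 865, 835 and 926 CPM, and the old asbestos Siglec F-high ones at 1239, 1243, 682 and 1339.8 CPM, where the low value is the shallow replicate 3. Asbestos against naive in old mice was 0.37 ± 0.18 with 24 libraries (edgeR adjusted p 0.593). With 22 libraries it was 0.55 ± 0.14 and called (edgeR adjusted p 0.0214), although 3 of 7 fits that left out 1 more library called it. The call was lost without old naive replicate 2 or 3 or old asbestos replicate 1 or 4, with adjusted p up to 0.0958. The old Siglec F-low libraries (1646, 1353, 1349 and 1591 CPM) were all above the old Siglec F-high ones, by 0.40 ± 0.18 with 24 and 0.22 ± 0.14 with 22 libraries, not called in either (edgeR adjusted p 0.285 and 0.380). Over 22 libraries Cd36, Got1 and Skap2 were most like Clec7a (r 0.936, 0.926 and 0.919).

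Clec4e was called higher in old naive cells by edgeR with 22 libraries but not with 24. Young naive libraries were at 30.6, 29.5, 28.8 and 34.6 CPM and old naive ones at 59.2, 48.0, 32.2 and 75.2 CPM. They overlapped at the low old library, replicate 3. The difference was 0.80 ± 0.26 with 24 libraries (edgeR adjusted p 0.156) and 0.80 ± 0.24 with 22 (0.0394), and 1 of 8 fits that left out 1 library of these groups called it, the one without old naive replicate 3. After asbestos the old libraries ran from 34 to 77.1 CPM and the young ones from 31.7 to 51.8 CPM over both sorts. All neighbouring group means overlapped. Plek and Cxcl1 were among the genes most like Clec4e in both sets of libraries (r 0.771 and 0.768 with 24, 0.813 and 0.787 with 22).

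Among the Toll-like receptors, Tlr7 was the one that differed with age. Young naive libraries were at 111, 100.2, 97.6 and 111 CPM and old naive ones at 123, 116, 159 and 159.8 CPM. After asbestos the young Siglec F-high libraries were at 128, 123, 37.0 and 121 CPM and the old ones at 177, 159, 167 and 172 CPM. Within naive and within asbestos mice, every old Siglec F-high library was above every young one. The outlying young library, with 383 counts of Tlr7, lay far below the others of its group.

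With 22 libraries Tlr7 was higher in old than in young naive cells by 0.42 ± 0.09 (1.34-fold, edgeR adjusted p 0.00495) and in old than in young asbestos Siglec F-high cells by 0.46 ± 0.11 (1.37-fold, 0.00859). The first was called in 8 of 8 and the second in 6 of 6 fits that left out 1 library of the groups compared. With 24 libraries the differences were 0.41 ± 0.23 (edgeR adjusted p 0.725) and 0.72 ± 0.23 (0.0675), not called. When the outlying young library alone was left out, Tlr7, old against young, asbestos Siglec F-high, stood at 0.44 (edgeR adjusted p 0.0145), and without young asbestos replicate 1, 2 or 4 it was called as well (0.81 to 0.84, edgeR adjusted p 0.0357 to 0.0424). In Siglec F-low cells the young libraries (151, 132, 134 and 130.1 CPM) and the old ones (158, 138, 126 and 147 CPM) overlapped, with a difference of 0.06 ± 0.23. The difference between the sort effects at the 2 ages was -0.66 ± 0.32 with 24 and -0.39 ± 0.14 with 22 libraries, called in neither (edgeR adjusted p 0.761 and 0.597). In order of level, old asbestos Siglec F-high cells stood above the next group, old Siglec F-low, with no overlap, and young Siglec F-low cells stood above young naive cells with no overlap. Msn was the gene most like Tlr7 in both sets of libraries (r 0.955 and 0.923).

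Tlr2 was lower in the Siglec F-low sort at both ages in the fit of 22 libraries. The young Siglec F-high libraries were at 955, 819.8, 583 and 648 CPM and the young Siglec F-low ones at 679, 625, 511 and 533 CPM. The old Siglec F-high libraries were at 809, 798, 690.1 and 787 CPM and the old Siglec F-low ones at 598, 659, 564 and 494 CPM, which did not overlap. The differences were -0.36 ± 0.17 in young (edgeR adjusted p 0.228) and -0.42 ± 0.17 in old mice (0.204) with 24 libraries, and -0.46 ± 0.15 (0.0478) and -0.47 ± 0.15 (0.0444) with 22. Of the fits of 21 libraries, 2 of 7 called the young difference (edgeR adjusted p 0.0240 to 0.239) and 1 of 7 the old one (0.0316 to 0.145), so neither call held against the loss of most single libraries. Age and asbestos moved Tlr2 by -0.20 to 0.13 with 24 libraries, none called. Over 22 libraries Tlr2 and Msr1 were the receptor pair with the lowest correlation (r -0.739) and Msr1 and Clec7a that with the highest (0.755).

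Tlr4 stood between 90.2 and 149 CPM in all libraries but the outlying pair, where it was at 53.1 CPM in the young and 203 CPM in the old one. Its group means without that pair were 105 to 127 CPM. With 22 libraries its 7 differences were -0.23 to 0.03, none called. In the asbestos Siglec F-high sort the difference of old from young was 0.43 ± 0.21 (edgeR adjusted p 0.208) with 24 libraries, against -0.03 ± 0.12 without the outlying pair. One alternative tool, limma voom with sample quality weights, called Tlr4, asbestos against naive, young Siglec F-high, at -0.32 (limma adjusted p 0.0294).

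Counted over the panel, edgeR called 0 of the 10 receptors for old against young naive cells with 24 libraries, where it called 2.03% of all genes. In that comparison 2 receptors had an unadjusted p under 0.05, DESeq2 called 0 and limma voom 2. All shares of genes given here are those of edgeR. The shares of DESeq2 and limma voom were not counted, so their receptor counts cannot be set against one. The same holds for the counts at an unadjusted p under 0.05. With 22 libraries edgeR called 2 (Tlr7 and Clec4e, both higher), with 8.03% of genes. For asbestos against naive in old mice the counts were 0 of 10 with 24 libraries (0.780% of genes; 2 receptors at an unadjusted p under 0.05; 1 called by DESeq2 and 2 by limma voom) and 2 with 22, Msr1 and Clec7a, both higher (4.12%). Between the sorts edgeR called Msr1 in each age with 24 libraries (4.99% of genes in young, 4.30% in old), and Msr1 higher and Tlr2 lower in each age with 22 (12.0 and 11.6%). The medians of the 10 log2 differences lay between -0.06 and 0.24 in the 7 comparisons with 24 libraries, against -0.01 to 0.04 for all genes. Neither interaction with age called any receptor with either set of libraries. With 24 libraries 1 and 0 receptors had an unadjusted p under 0.05 in the asbestos and the sort interaction, DESeq2 and limma voom called 0 in both, and 0% of all genes were called. With 22 libraries 2 and 1 receptors had an unadjusted p under 0.05, and 0.0147% of all genes were called in each interaction.

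Other members of the same receptor families were read from pathway lists. Of 13 other scavenger receptors tested, 3 were called higher in the Siglec F-low sort at each age and 0 lower, where 4.99% of all genes were called in young and 4.30% in old mice, with list medians of 0.16 in young and -0.08 in old mice. Cxcl16, a membrane chemokine that also binds oxidised lipoprotein, rose from 11.4 to 32.6 CPM in young mice (1.52 ± 0.18, edgeR adjusted p 1.23e-05) and from 14.9 to 44.4 CPM in old mice (1.51 ± 0.18, 2.63e-05). In the same comparisons Cd36, a fatty acid and lipoprotein receptor, was at 349 and 740.0 CPM in young (1.08 ± 0.22, edgeR adjusted p 0.00432) and 546 and 936 CPM in old mice (0.78 ± 0.22, 0.0485). Stab1, an endocytic scavenger receptor, rose by 1.62 ± 0.39 and 2.09 ± 0.44 from under 3 CPM. Colec12, a scavenger receptor with a collectin domain, was higher in old cells, at 68.1 against 23.9 CPM in naive (1.51 ± 0.33, edgeR adjusted p 0.0116) and 107 against 36.2 CPM in asbestos Siglec F-high cells (1.56 ± 0.33, 0.00811). Both Colec12 calls held with 22 libraries.

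Of 17 other C-type lectin receptors tested, 2 were called higher in old cells in each of the 3 age comparisons, Cd209b and Clec1a, and 2, 1 and 0 were called lower in naive, asbestos Siglec F-high and Siglec F-low cells, where 2.03%, 4.76% and 1.29% of all genes were called. The list medians were 0.04, -0.17 and 0.16. Cd209b, a relative of DC-SIGN, rose from 3.69 to 22.1 CPM in naive (2.58 ± 0.26, edgeR adjusted p 1.41e-06), from 1.82 to 18.8 CPM in asbestos Siglec F-high (3.38 ± 0.28, 1.97e-07) and from 1.01 to 8.18 CPM in Siglec F-low cells (3.02 ± 0.29, 6.24e-06). Clec1a rose by 1.69 ± 0.30, 1.33 ± 0.31 and 1.95 ± 0.31. Clec4a3, a receptor of the Dectin-2 cluster, was lower in old Siglec F-high cells. It fell from 134 to 92.2 CPM in old naive (-0.54 ± 0.14, edgeR adjusted p 0.0492) and from 155 to 90.7 CPM in old asbestos Siglec F-high cells (-0.75 ± 0.14, 0.00385). Clec5a, a receptor that signals through DAP12, rose after asbestos in young mice from 38.3 to 78.6 CPM (1.04 ± 0.27, edgeR adjusted p 0.0458).

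Of 8 other Toll-like receptors tested, 1 was called higher and 0 lower in old against young asbestos Siglec F-high cells, 1 higher and 0 lower after asbestos in young mice, 1 higher and 0 lower between the young sorts, and 1 higher and 1 lower between the old sorts. Of all genes 4.76%, 1.90%, 4.99% and 4.30% were called in these comparisons. The first was Tlr11, at 1.31 ± 0.398 against 0.172 ± 0.190 CPM (2.85 ± 0.67, edgeR adjusted p 0.0169). Levels this low rest on few counts, so the size of that difference carries large counting error. Tlr13, which senses bacterial ribosomal RNA, rose after asbestos in young mice from 49.4 to 77.4 CPM (0.65 ± 0.14, edgeR adjusted p 0.0202) and again to 110.2 CPM in Siglec F-low cells (0.51 ± 0.14, 0.0415). In old mice Tlr1, the partner of Tlr2, was higher in the Siglec F-low sort (3.02 against 0.522 CPM, 2.20 ± 0.34, edgeR adjusted p 0.000301), and Tlr5, the flagellin receptor, was lower (12.2 against 30.6 CPM, -1.27 ± 0.31, 0.0168). Of 23 Toll-like receptor signalling genes tested, 1 was called higher and 1 lower for old against young asbestos Siglec F-high and 1 higher between the young sorts, all members of the Irak family of signalling kinases, with a list median of -0.09 to 0.10 over the 7 comparisons. Irak2 was at 88.0 against 64.6 CPM (0.43 ± 0.11, edgeR adjusted p 0.0239) in old asbestos Siglec F-high cells, and the lower Irak4 (-0.46 ± 0.12, 0.0359) was not called with 22 libraries (0.0966). Of 15 lectin signalling genes tested, Src, a kinase of many receptor pathways, rose from 5.32 to 14.2 CPM in old naive cells (1.42 ± 0.31, edgeR adjusted p 0.0117) and from 3.03 to 19.9 CPM in old asbestos Siglec F-high cells (2.69 ± 0.33, 2.72e-05). Between the young sorts Src was also higher in Siglec F-low cells (3.03 to 13.5 CPM, 2.12 ± 0.32, edgeR adjusted p 0.000246), as was Vav3 (12.6 to 24.2 CPM, 0.93 ± 0.25, 0.0276). With 24 libraries the other 4 of the 7 comparisons called 0 of the 15, where 0.780% to 4.30% of all genes were called.

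Of 21 inflammatory target genes tested, edgeR called 0 in each of the 7 comparisons with 24 libraries, where 0.780% to 4.99% of all genes were called. Of the targets, 14, 17 and 21 were above 0 in the 3 age comparisons. Their medians were 0.36 in naive, 0.23 in asbestos Siglec F-high and 0.53 in Siglec F-low cells, against -0.01, 0.04 and -0.01 over all genes. At an unadjusted p under 0.05 there were 3, 5 and 6 of them with 24 libraries. With 22 libraries edgeR called 3, 1 and 3 higher, where 8.03%, 7.32% and 7.21% of all genes were called. The shares of all genes above 0 or at an unadjusted p under 0.05 were not counted, so a shift of this list with age was not shown. Of the 12 inflammasome genes Il18, a cytokine cut by caspase-1, fell in the Siglec F-low sort from 185 to 122 CPM in young (-0.60 ± 0.14, edgeR adjusted p 0.0122) and from 134 to 89.2 CPM in old mice (-0.60 ± 0.14, 0.0158). Casp4, an inflammatory caspase, rose between the young sorts from 17.2 to 27.0 CPM (0.65 ± 0.17, edgeR adjusted p 0.0267). With 24 libraries 4.99% of all genes were called between the young and 4.30% between the old sorts. The other 5 comparisons called 0 of the 12, where 0.780% to 4.76% of all genes were called, so a count of 0 is little different from those shares. B cell markers moved with the age and asbestos comparisons: the 8 genes summed to 64.9 to 105 CPM in young naive, 143 to 289 CPM in old naive and 25.3 to 104 CPM in the asbestos Siglec F-high libraries. The dendritic cell list summed to 20.5 to 49.7 CPM over all 24 libraries. The 6 eosinophil markers summed to 3.54 to 9.18 CPM in the naive libraries. After asbestos they summed to 6.53 to 41.6 CPM in Siglec F-high and 24.7 to 65.6 CPM in Siglec F-low libraries. With 24 libraries Ear6 of that list was called higher after asbestos in Siglec F-high cells of both ages. The 9 lung epithelial markers summed to 171 to 390 CPM over all 24 libraries. Of these, Epcam was called lower in the Siglec F-low sort at both ages. The part of any of these cells in the age, asbestos and sort differences of the receptors was not tested.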

How the data were processed

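Sorted mouse alveolar macrophages were profiled by RNA-seq in 24 libraries, 4 in each of 6 groups taken from the sample labels. The authors deposited 1 table of whole-number read counts per Ensembl gene, not normalized. Per the labels, libraries were made from 30 ng of total RNA with a NEBNext kit and poly(A) selection, and per the submitters' processing notes bcl2fastq 2.19.1, FastQC, Trimmomatic 0.36, STAR 2.6.0, HTSeq 0.11.2 and mm10 were used. The annotation and strand setting are not given in the sources used here. Symbols were found for 42462 of 43430 gene IDs.

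Genes were filtered with filterByExpr of edgeR 4.0.16 in R 4.3.3 (minimum count 10, minimum total 15), scaled by TMM and tested with the quasi-likelihood F test, 1 term per group, with Benjamini-Hochberg adjustment over the 13467 genes tested with 24 libraries or the 13629 tested with 22. Tested were 7 contrasts between pairs of groups and, for asbestos and for the sort, the difference of a contrast between the ages (2 interactions). Depth is 3894699 to 18124526 counts a library. Counting error is smallest for the receptors with the most counts. DESeq2 1.42.0, limma voom (limma 3.58.1), other scalings, no filter, removal of rRNA-related genes, a replicate block, the compared groups alone and leaving out each library were tried as alternatives, and the scripts were tested on simulated data. The pair left out of the 22 libraries was itself picked from the depth and quality seen in these data. The fits of 22 libraries that leave out 1 more library or add the block were also chosen after seeing the data.

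The 10 receptors and the gene lists were chosen with earlier results of these data known. Named were all 10 receptors, at most the 3 called genes of smallest p per pathway list and comparison, the 10 genes most correlated with Marco and the 3 most correlated with each other receptor (Pearson r of log2 CPM, prior count 2). Of these only some are printed. Promoter windows are from RefSeq.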

Additional observations from a re-analysis of the deposited data

Results flagged for a closer look

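In a group of 4, a library was singled out where its gap to the nearest of the other 3, divided by the range of the group, was above Dixon's critical value for 4 values. This held for 5 of 60 pairs of a receptor and a group, where chance gives about 1 in 20.

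Marco in young naive Siglec F-high replicate 1 was at 608.496 CPM against 121 to 129 CPM in the other 3 libraries. Marco in old asbestos Siglec F-low replicate 2 was at 614.497 CPM against 249 to 307 CPM. Tlr7 in young asbestos Siglec F-high replicate 3, one of the outlying libraries, was at 37.0312 CPM against 121 to 128 CPM. Clec7a in old asbestos Siglec F-high replicate 3, the shallow library, was at 681.92 CPM against 1239 to 1339.8 CPM. Tlr7 in young asbestos Siglec F-low replicate 1 was at 150.596 CPM against 130.1 to 134 CPM.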

How the results depend on the processing

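Counts of called receptors changed with the libraries and the tool. The share of all genes called was counted for the main edgeR fits of 24 and of 22 libraries alone. The receptor counts under other tools and settings therefore stand without such a share. For old against young naive cells the count of 0 became 2 with limma voom, 2 with 22 libraries, 1 with the compared groups alone and 3 with 22 libraries and the replicate block, and leaving out 1 library gave 0 with 24 and 1 to 2 with 22. For old against young asbestos Siglec F-high the 1 call became 0 with library totals alone, no filter, rRNA-related genes removed, the replicate block or the compared groups alone, 2 with DESeq2, 3 with limma voom and 2 with 22 libraries and the block, and leaving out 1 library gave 0 to 2. In Siglec F-low cells the 1 call became 0 with DESeq2 size factors, library totals, no filter, rRNA-related genes removed or the block, and leaving out 1 library gave 0 to 1. For asbestos against naive, the young count of 1 became 3 with limma voom, and 1 to 2 leaving out 1 library, the 2 without young naive replicate 1. The old count of 0 became 1 with DESeq2, 2 with limma voom, 22 libraries or 22 libraries with the block, and 0 to 2 leaving out 1 library. Between the sorts the young count of 1 became 3 with limma voom, 2 with 22 libraries and 3 with the block added to these, and the old count became 2 under each of the same 3. Leaving out 1 library gave 1 to 2 for each. Both interactions stayed at 0. The cause of these changes was not tested. Of 2560 receptor values under an alternative, 68 were newly called and 31 lost. No called value changed sign, and of 2367 values not called under either setting 226 did. Library totals alone moved the median of all genes by up to -0.32 (asbestos against naive, old). With 24 libraries no pair of groups had every same-number correlation above 0.1. With 22 the old asbestos sorts alone did (0.150 to 0.205 over 3 numbers), and the block changed no call of a receptor there. The young asbestos sorts ran from 0.0854 to 0.319 with 22 libraries. So few correlations cannot tell whether the sorts of a replicate number came from the same animal. Depth limits Cd163 most, at 2 to 98 counts a library.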
